A study of Mus musculus with 42 samples.

Results

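Ncl, Npm1, Fbl, Nop56, Ddx21 and Ppan, which act in the nucleolus, and Odc1 and Srm, which make polyamines, are genes long described as targets of the transcription factor Myc. Their levels were followed across 21 mouse mammary tumours. The members were the 9 probes that the array's annotation assigns to these 8 genes, out of 22800 probes in the table, with 2 probes for Ncl and 1 for each of the others. All 9 had a value on all 42 arrays and passed the filter on missing values. The tumours descended from mammary neoplasms of FVB/N-Tg(WapMyc)212Bri mice, in which the promoter of the milk protein gene Wap drives a c-Myc transgene in mammary epithelium, so all 21 share that origin. Serial passage in mice had given glandular lines, solid or comedo lines with and without lung metastases, and spindle-cell lines. The labels give each tumour a number but neither its line, its host nor its age, and tumours of 1 line may be present more than once. Comparisons are therefore between numbered tumours, and no untreated or normal mammary sample was analysed here.

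Myc binds E-box sequences near gene starts and drives cell growth, to a large part by raising the output of ribosomes. Nucleolin (Ncl) and nucleophosmin (Npm1) are abundant nucleolar proteins that handle ribosomal RNA and pre-ribosomal particles. Fibrillarin (Fbl) is the methyltransferase, and Nop56 a core protein, of the box C/D snoRNP particles that methylate ribosomal RNA. Ddx21 is an RNA helicase of ribosomal RNA synthesis and processing, and Ppan (Peter Pan) is needed to mature the large ribosomal subunit. Ornithine decarboxylase (Odc1) makes putrescine, the entry step of polyamine synthesis, and spermidine synthase (Srm) turns putrescine into spermidine. Polyamines bind nucleic acids and are needed for growth.

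Because the members are known as E-box genes, the promoter windows that were at hand are shown where they hold an E-box variant. RefSeq windows of the GRCm38.p6 build, from 250 bases before to 50 bases after the gene start, were held for 5 members (Ncl, Nop56, Ddx21, Ppan and Odc1). The canonical E-box CACGTG, which reads the same on both strands, was in 0 of these 5 windows and in 7.15% of 32851 mouse windows of the same length. The non-canonical E-box CACGCG, searched on both strands (CGCGTG on the other), was in 3 of the 5 windows and in 9.27% of the 32851 (no run of 6 bases can match both motifs). The 5 windows held 53.3% (Ppan) to 78% (Odc1) G or C, against a median of 52.7% over all windows. The motif is itself rich in G and C, and no windows matched for this were compared. The capitals below mark CACGCG or CGCGTG, in the direction of transcription. Odc1 has both, starting at bases 71 and 150 of its window, Ppan has 1 at base 260 and Ddx21 has 1 at base 289. The windows lie at chr12:17544623-17544922 on the plus strand for Odc1, at chr9:20887925-20888224 on the plus strand for Ppan and at chr10:62602249-62602548 on the minus strand for Ddx21. A match describes the letters and no binding was measured; the E-boxes described for Odc1 lie in an intron, outside this window.
Odc1 promoter: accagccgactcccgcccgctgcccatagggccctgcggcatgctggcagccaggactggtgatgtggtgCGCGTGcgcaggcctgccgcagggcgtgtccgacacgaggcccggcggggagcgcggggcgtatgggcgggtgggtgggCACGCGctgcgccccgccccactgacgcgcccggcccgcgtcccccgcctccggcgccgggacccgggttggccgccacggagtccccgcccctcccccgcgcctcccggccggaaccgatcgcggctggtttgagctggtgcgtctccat
Ppan promoter: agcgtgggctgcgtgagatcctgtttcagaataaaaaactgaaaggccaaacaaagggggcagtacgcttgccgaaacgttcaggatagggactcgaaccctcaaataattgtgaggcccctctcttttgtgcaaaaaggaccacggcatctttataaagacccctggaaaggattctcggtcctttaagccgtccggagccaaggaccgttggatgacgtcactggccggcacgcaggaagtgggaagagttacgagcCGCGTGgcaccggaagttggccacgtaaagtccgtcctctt
Ddx21 promoter: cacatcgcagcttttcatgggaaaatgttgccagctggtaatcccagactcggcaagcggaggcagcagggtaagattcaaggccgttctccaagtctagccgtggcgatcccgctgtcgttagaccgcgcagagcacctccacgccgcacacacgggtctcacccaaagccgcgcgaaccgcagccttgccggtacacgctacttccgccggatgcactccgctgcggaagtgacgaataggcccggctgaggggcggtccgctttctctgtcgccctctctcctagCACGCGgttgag

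Each tumour RNA was hybridised on 2 two-colour arrays with the dyes exchanged, against a universal mouse reference RNA, and a level is the log2 ratio of tumour to reference, averaged over the 2 arrays. The labels do not settle the direction. The sign was set so that Myc, the transgene, is above 0, and it is likely that a positive value means more in the tumour, since the globin gene Hba-a1 (above 0 in 21 of 21 tumours) and the casein Csn3 (above 0 in 19) then lie above the reference too. Arrays held between 8370 and 21098 measured probes, and with 2 arrays a tumour each level has limited precision. The 2 arrays of tumour 656 did not run opposite to each other as those of the other 20 tumours did. Their correlation over probes before turning was 0.07, against -0.56 to -0.06 in the others, with tumours 639, 647 and 660 at -0.06. The levels of tumour 656 thus rest on arrays that disagree over all probes, though not for every member. Results are given with and without it. The arrays of tumours 639, 646, 647 and 660 ran opposite only weakly, at -0.09 to -0.06. These tumours were not left out as tumour 656 was, and their levels share this limit in part. Slide numbers fall into 3 runs of 9, 13 and 20 arrays, and what a run stands for is not given in the sources used here. A p-value here measures the error between 2 hybridisations of an RNA, not the spread between animals.

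The 6 nucleolar genes each had their lowest level in tumour 644, 646 or 647, which belong with tumours 649 and 673 to the 5 tumours with the lowest Myc. Npm1, Nop56, Ddx21 and Ppan had their highest level in tumours 638 to 643 or in tumour 667. Odc1 followed another order over the 21 tumours: it was lowest in 8 tumours numbered 653 to 665 and in tumour 670. Of the 9 member probes, 7 differed between tumours (limma's moderated F test, adjusted p under 0.05), which covers 6 of the 8 genes, beside 19.2% of the 9407 probes tested. Ddx21 and Srm did not pass, with adjusted p of 0.0871 and 0.107. With dye orientation as a covariate in the same test both passed, at 0.0362 and 0.0012, beside 43.9% of all probes. The standard error (SE) of a tumour's level ran from 0.28 for Ddx21 to 0.50 for the other Ncl probe, against a median of 0.63 over all tested probes, and the SD between tumours from 0.43 to 1.32, against a median of 0.82. With every array centred on its own median, 4 of the 9 probes passed, beside 18.2% of all. Of 11 other settings, the call was kept in 10 for Odc1, 9 for Nop56, 7 for Ncl and Ppan, 6 for Npm1 and 5 for Fbl. No tumour differed from its neighbour in the order of levels for any of the 9 probes.

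**Figure D1:**
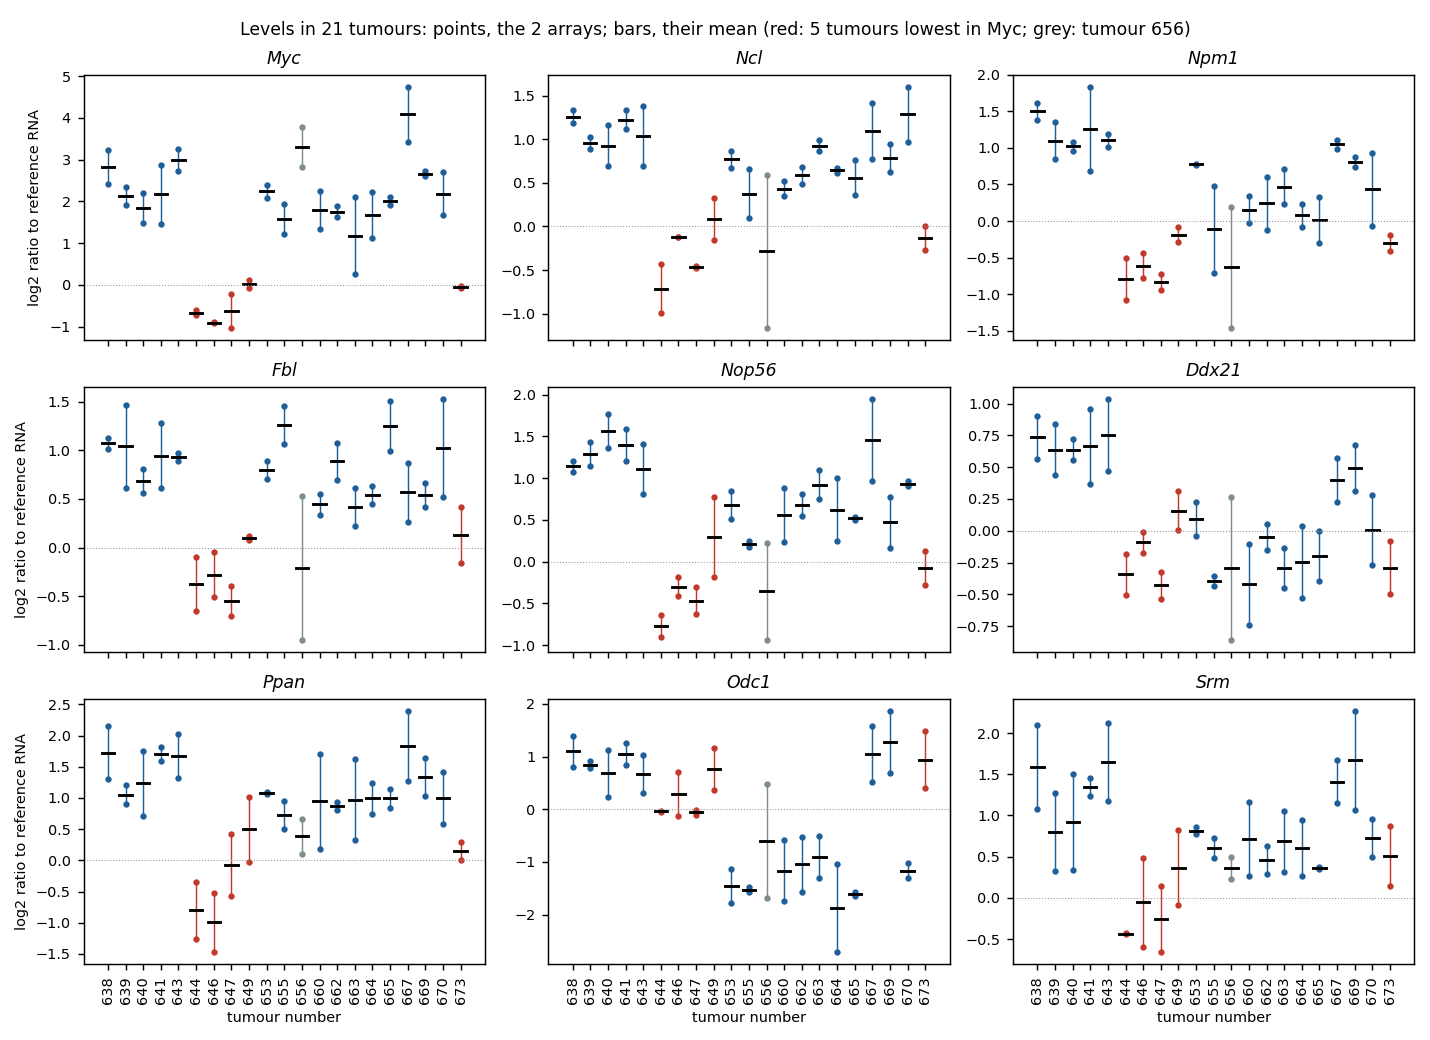
Level of Myc and of the 8 genes (y axis, log2 ratio to the reference RNA, with its own scale in each panel) in 21 tumours (x axis, tumour number); points are the 2 arrays and bars their mean. The 5 tumours lowest in Myc are red and sit at the bottom of most nucleolar panels. They do not in the Odc1 panel, where tumours 653 to 665 and 670 lie lowest. The arrays of tumour 656 (grey) stand far apart for Ncl, Npm1, Fbl, Nop56, Ddx21 and Odc1, but less so for Ppan and Srm.

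Myc itself, the regulator, had a lowest level of -0.91 in tumour 646, a median of 1.85 and a highest of 4.08 in tumour 667 (SE 0.43, 2 arrays, adjusted p = 2.33e-05). The 5 lowest tumours lay between -0.91 and 0.02 and the other 16 between 1.18 and 4.08; the 5 were set apart by Myc itself, at the step from 0.02 in tumour 649 to 1.18 in tumour 663. Whether the probe also reads the transgene's transcript is not given in the sources used here.

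Npm1 ranged from -0.83 in tumour 647 through a median of 0.24 to 1.50 in tumour 638 (SE 0.35, adjusted p = 0.00732). It lay below 0 in all of the 5 tumours lowest in Myc, at -0.83 to -0.18. The other 16 lay between -0.63 and 1.50, and without tumour 656 between -0.11 and 1.50, so that only tumour 656 reached into the lower range. In tumour 656 the arrays read -1.45 and 0.19. Tumours 638 to 643 stood together at 1.02 to 1.50. Of the 210 pairs of tumours, 13 differed after adjustment over all probes and pairs.

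Ncl, by the probe that gave tighter pairs of arrays, ranged from -0.71 in tumour 644 through a median of 0.65 to 1.29 in tumour 670 (SE 0.31, adjusted p = 0.0123), with 11 pairs of tumours apart. The 5 tumours lowest in Myc lay at -0.71 to 0.08. Apart from tumour 656, whose arrays read -1.16 and 0.59, all others lay at 0.38 to 1.29, with no overlap. Fbl gave the narrowest case of the called genes: its lowest level was -0.55 in tumour 647, its median 0.57 and its highest 1.26 in tumour 655 (SE 0.32, adjusted p = 0.0383), and 2 pairs of tumours differed. The 5 tumours lay at -0.55 to 0.13 and the others, without tumour 656, at 0.42 to 1.26. The call for Fbl held in only 17 of 42 fits that each left out an array, where the adjusted p ran from 0.00729 to 0.0828, and it was lost with slide run as a block (adjusted p = 0.101).

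Nop56, the snoRNP partner of fibrillarin, ranged from -0.77 in tumour 644 through a median of 0.62 to 1.56 in tumour 640 (SE 0.31, adjusted p = 0.00353). The highest levels were again in tumours 638 to 643, at 1.11 to 1.56, and in tumour 667, at 1.46. With 20 of 210 pairs of tumours apart, it separated more pairs than the other nucleolar genes by their main probes. The 5 tumours lowest in Myc held -0.77 to 0.30 and overlapped with tumour 655, at 0.21, and tumour 656, at -0.36.

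Ddx21 covered the smallest range of the 8 genes, from -0.43 in tumour 647 through -0.05 to 0.76 in tumour 643 (SE 0.28). Tumours 638 to 643, 667 and 669 held 0.40 to 0.76, and the other 14 tumours held at most 0.16. No pair of tumours differed, and the adjusted p of 0.0871 became 0.0404 without tumour 656. Ppan had a lowest level of -0.99 in tumour 646, a median of 0.99 and a highest of 1.83 in tumour 667 (SE 0.42, adjusted p = 0.0224). Of the 21 tumours, 18 were above 0, and the 3 below were tumours 644, 646 and 647. The adjusted p of Ppan was 0.061 without replicate 1 of tumour 644 and 0.0715 without replicate 2 of tumour 646, and it was 0.0546 with slide run as a block.

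Below all of the 15 others, tumour 656 left out, the 5 tumours lowest in Myc held Ncl, Npm1, Fbl and Ppan, 4 of the 9 member probes, beside 1.81% of 8225 probes; with tumour 656 kept, 0 of 9 stood apart, beside 1.1% of 7986. With arrays centred on their medians, 2 of the 9 lay below all others without tumour 656 (Npm1 and Ppan, beside 1.93% of 8225 probes) and 1 with it (Ppan, beside 1.48% of 7986). The same 5 tumours also differed from the rest in listed cell type markers, and fewer cells of a type cannot be told apart here from less RNA per cell. The mean of 8 mesenchymal markers (among them Vim, Sparc and collagens) was 0.83 to 1.43 in these 5 and -4.30 to -2.24 in the other 16. The mean of 8 epithelial markers was -0.92 to 0.44 against 1.17 to 3.38. Among these 8, only Epcam (-3.13 to -0.02 against 1.27 to 3.69) and Spint2 (-3.10 to -0.14 against 1.08 to 3.83) did not overlap. The keratin Krt8 was not lower, at 2.21 to 3.24 against 0.74 to 3.14. The mean of 8 macrophage markers was 1.91 to 2.97 against -2.50 to 1.32. The mean of 17 proliferation genes overlapped, at -0.53 to 0.31 against -0.81 to 0.35. Of these lists, 5 epithelial, 8 mesenchymal, 7 macrophage and 3 proliferation genes passed the test between tumours. So did 2 of 2 milk genes and 1 of 1 red blood cell gene, but 0 of 2 T cell, 0 of 2 endothelial and 0 of 2 adipocyte genes, of which 1 endothelial gene had an unadjusted p under 0.05; no B cell gene was tested. The part of these cell types in the low nucleolar levels was not tested. Both arrays of each of these 5 tumours were turned on the weakest evidence in the series, with loadings of at most 0.16 against at least 0.19 for the others. With these 5 turned the other way, 3 of the 9 member probes passed (Nop56, Odc1 and the other Ncl probe), which is 2 of the 8 genes by their main probes, beside 24.2% of the 9407 probes. The sign of the levels in these 5 tumours would be reversed, and 0 of the 9 would lie below all others, with or without tumour 656, beside 3.46% and 4.05% of all probes, and 0 of the 9 above all others, beside 5.75% and 5.8%. Hba-a1, at 4.60 to 8.82 in these 5 and 0.63 to 4.74 in the others, would then be below the reference in these 5 tumours only.

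The other Ncl probe did not follow the main probe. It ranged from -2.98 in tumour 646 through 0.00 to 1.82 in tumour 656 (SE 0.50, adjusted p = 3.26e-04), and 31 pairs of tumours differed. It lay at -2.98 to -0.66 in the 5 tumours lowest in Myc, at -1.17 to 0.00 in tumours 638 to 643 and at 0.29 to 1.08 in tumours 667 to 670. Within the 16 other tumours it ran against the main probe, with r = -0.66 (p = 0.00417, permutation test) and rho = -0.60 (p = 0.0152), and r = -0.48 without tumours 655 and 656. It is a dim probe, with 16.7% of its values at ratios of small whole numbers against 0% for the main probe. The annotation names it Ncl, but of the 8 other probes whose sequence records lie within 6 numbers of its own, 6 are named as snoRNAs. Introns of Ncl host snoRNAs, so the probe may read one of these and not the Ncl messenger RNA, which was not tested. The main probe stands for Ncl below, and by main probes 6 of the 8 genes differed between tumours.

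Odc1 split the tumours more widely than any other gene of the group by its main probe. Its lowest level was -1.87 in tumour 664, its median -0.04 and its highest 1.28 in tumour 669 (SE 0.47, adjusted p = 0.00184), and 22 pairs of tumours differed. A mixture model placed 9 tumours in a lower component at -1.87 to -0.60 (653, 655, 656, 660, 662, 663, 664, 665 and 670) and 12 in a higher one at -0.05 to 1.28. The step from tumour 656 to tumour 647, 0.55, was the largest between neighbours. Odc1 was not low in the 5 tumours lowest in Myc, which held -0.05 to 0.94 and of which 0 were among its 6 lowest. Of these 5 tumours, 5 were among the 6 lowest for Ncl, Npm1, Fbl and Ppan, 4 for Nop56 and 2 for Ddx21.

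The slide runs moved with this split. All 13 arrays of the second run were of tumours in the lower component, at -1.78 to 0.49, and all 9 arrays of the run before it were of tumours in the higher one, at -0.05 to 1.39. The third run held both: its 5 arrays of lower tumours (both of tumour 670 and 1 each of 660, 664 and 665) read -2.71 to -0.59, and its 15 arrays of higher tumours read -0.12 to 1.87. The components were drawn from these same Odc1 values, so the ranges describe them and test nothing. For tumours with arrays in only the first or only the second run, Odc1 level and slide run cannot be told apart. Tumours 660, 664 and 665 had an array in each of both later runs, and read -1.75 and -0.59, -1.03 and -2.71, and -1.57 and -1.65. With slide run as a block, the adjusted p of Odc1 was 0.109 and 4 of the 9 member probes passed (both Ncl probes, Npm1 and Nop56), beside 7.55% of the 9407 probes.

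**Figure D2:**
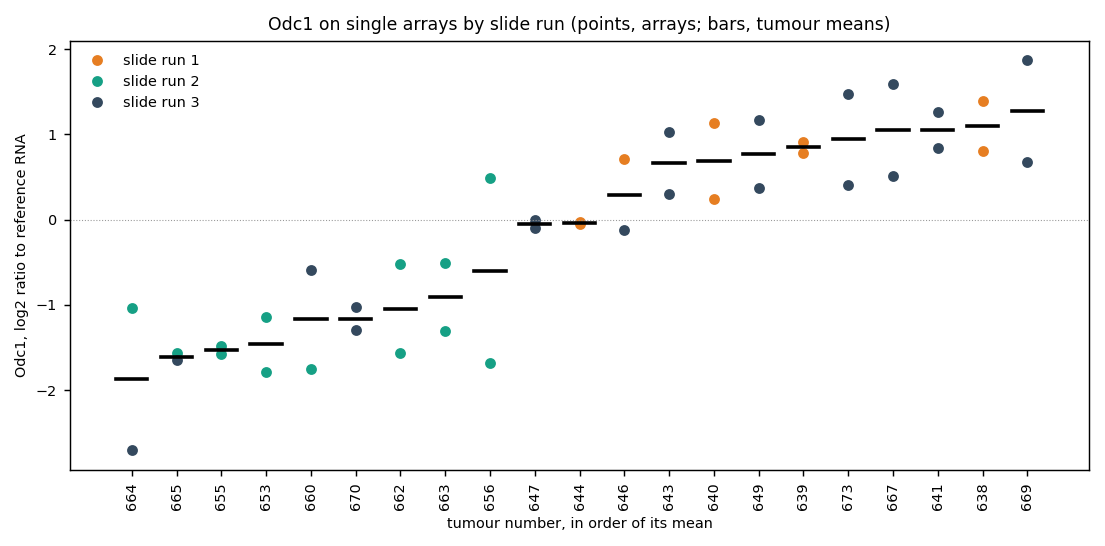
Odc1 on each of the 42 arrays (points, coloured by slide run; y axis, log2 ratio to the reference RNA), with tumours in order of their mean (bars) on the x axis. The arrays of the second run are all of the 9 lower tumours, and the third run holds 5 arrays of lower tumours, at -2.71 to -0.59, and 15 of higher ones, at -0.12 to 1.87; lower and higher were drawn from these values.

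Srm, the next enzyme of the pathway, did not share the Odc1 split over all 21 tumours. Within the 16 tumours high in Myc, Srm came close to it. It ranged from -0.44 in tumour 644 through 0.68 to 1.67 in tumour 669 (SE 0.39, adjusted p = 0.107), and 2 pairs of tumours differed. The 9 tumours lowest in Odc1 held 0.37 to 0.82 for Srm, in the middle of its range. Of the tumours higher in Odc1, the 5 lowest in Myc held -0.44 to 0.51 for Srm. Tumours 638 to 643, 667 and 669 held 0.80 to 1.67 for Srm, with little overlap with the 9. These tumours were also the highest in Ddx21, at 0.40 to 0.76, against at most 0.16 in the other 14. The 3 tumours below 0 were 644, 646 and 647. Tumours 638, 641, 643, 667 and 669 were the 5 highest, at 1.35 to 1.67, and these 5 were also high in Odc1, at 0.66 to 1.28.

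Whether the members follow Myc was asked over tumour means. Since Myc split into the 5 low and 16 high tumours, no pooled correlation was taken, and the 5 are too few for their own. Over the 16, Pearson's r with Myc was 0.55 for Odc1 (rho 0.56), 0.52 for Srm (rho 0.54), 0.46 for Ppan (rho 0.58), 0.43 for Ddx21 (rho 0.53), 0.26 for Npm1 (rho 0.42), 0.08 for Nop56 (rho 0.19), 0.06 for Ncl (rho 0.37) and -0.26 for Fbl (rho -0.05). In the permutation test, 0 of 8 passed after adjustment over the 8: the smallest unadjusted p was 0.0231 for Odc1, the only other under 0.05 was 0.0343 for Srm, both with an adjusted p of 0.137, and the smallest adjusted p of rho was 0.0767. The median r of the members was 0.35, and that of all 8051 probes measured in these tumours 0.29, with the percentiles 5 and 95 at -0.57 and 0.69.

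This count changed most without tumour 656, and it also changed without 1 array of tumour 667, as the closing section gives. Tumour 656 had the second highest Myc, 3.30, and was low for most members. Its 2 arrays were not far apart for Ppan (0.11 and 0.66) or Srm (0.23 and 0.50). Without it, over 15 tumours, 5 of 8 passed: Ppan with r = 0.81 (adjusted permutation p = 0.00104), Srm with r = 0.73 (p = 0.00468), Odc1 with r = 0.63 (p = 0.0195), Ddx21 with r = 0.60 (p = 0.0235) and Npm1 with r = 0.59 (p = 0.0235). Ncl, at 0.50, Nop56, at 0.43, and Fbl, at 0.00, did not pass. Over these 15 tumours the median r of the 8 genes was 0.60, and that of all 8292 probes measured in them 0.37, with the percentiles 5 and 95 at -0.57 and 0.73, so that 1 of the 8, Ppan, lay above the latter. Leaving out the 2 tumours farthest from the median of Myc (656 and 667) gave r = 0.77 for Ppan, 0.81 for Srm, 0.62 for Odc1, 0.74 for Ddx21 and 0.66 for Npm1. A shift shared by all probes of an array entered these values: with arrays centred on their medians and tumour 656 left out, 0 of 8 passed, with r of 0.32 for Ppan, 0.26 for Srm, 0.18 for Odc1, -0.12 for Ddx21 and 0.13 for Npm1, where the median over all probes was -0.17. No slide run held 6 of the 16 tumours whole, so no within-run value could be given.

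**Figure D3:**
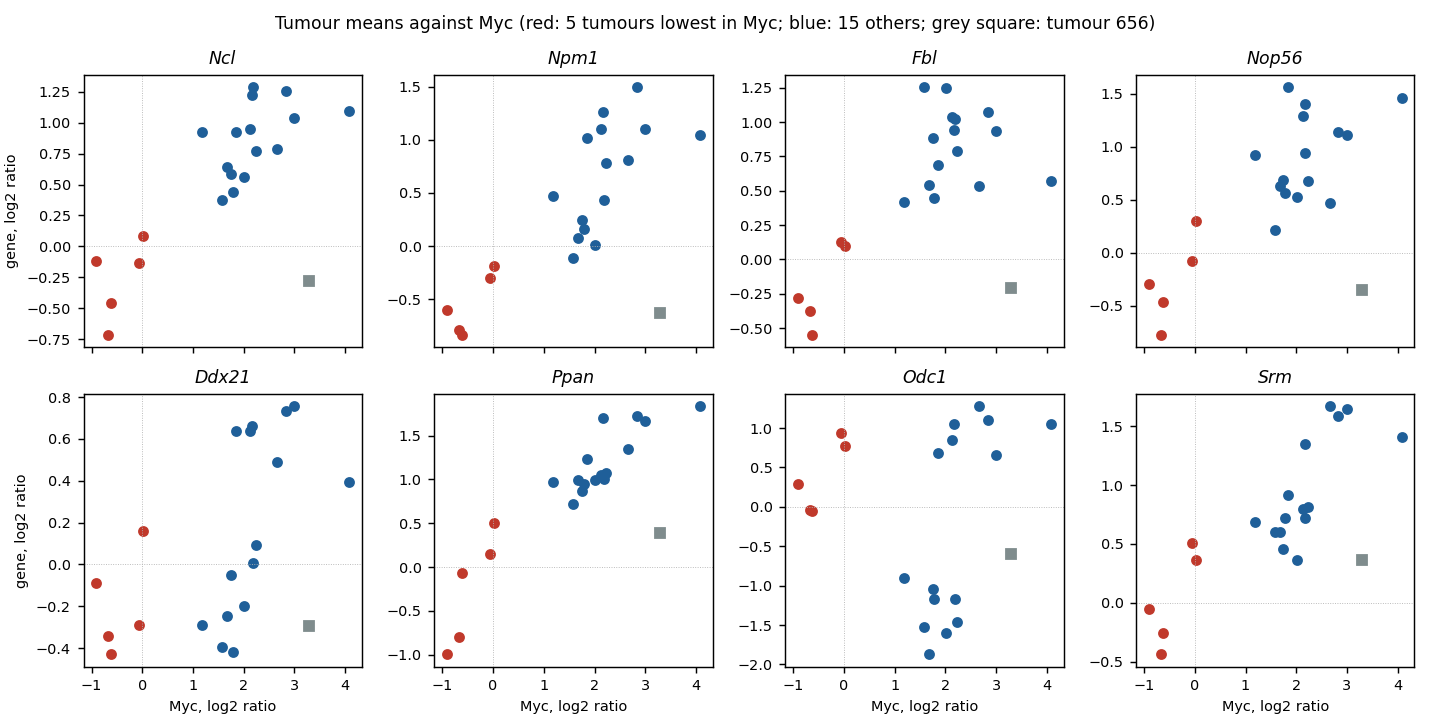
Tumour means of the 8 genes (y axis, log2 ratio, own scale in each panel) against Myc (x axis, log2 ratio), with the 5 tumours lowest in Myc in red, 15 others in blue and tumour 656 as a grey square. The square stands apart from the blue points in most panels; r over the blue points is 0.81 for Ppan and 0.00 for Fbl, and for Odc1 the red points lie above many of the blue ones.

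Several pairs of members moved together and others did not. Npm1 and Nop56 had r = 0.93 and rho = 0.91 over 21 tumours (adjusted p = 5e-04 by permutation, over 50 relations), with r = 0.86 within the 16 tumours high in Myc and 0.79 without tumour 656. Ncl had r = 0.80 with Npm1, 0.77 with Nop56, 0.71 with Ddx21 and 0.71 with Ppan in the 15 tumours of its higher component (adjusted permutation p of 0.005, 0.008, 0.0148 and 0.0147). Npm1 and Srm had r = 0.85 in 13 tumours, and Ppan and Srm r = 0.86 in the 10 tumours of the broadest Ppan component (adjusted permutation p of 0.00183 and 0.008). Odc1 went with Srm in its 12 higher tumours, with r = 0.86 and rho = 0.74 (adjusted p = 0.0042 by permutation), and r = 0.70 without the 2 tumours farthest from the median; in its 9 lower tumours r was -0.19 (adjusted p = 0.697, exact permutation). The difference between these 2 values was not tested. Both the 12 higher Odc1 tumours and the 10 of the broadest Ppan component hold all 5 tumours lowest in Myc. The 13 tumours for Npm1 and Srm hold 649 and 673 of them. The gap between tumours low and high in Myc enters these r, which were not tested again within the 16. The 10 tumours are also not neighbours in Ppan level. They span -0.99 to 1.34 but leave out, within that span, the 7 tumours of another component at 0.95 to 1.08. This selection enters every r taken in the 10. In all, 21 of 50 relations passed and 29 did not. Among those that did not were Ncl and Fbl in the 15 tumours (r = 0.05, adjusted permutation p = 0.904) and Npm1 and Ddx21, with r = 0.45 in the 14 tumours of the lower Ddx21 component and 0.61 in the 7 of the higher (adjusted permutation p of 0.197 and 0.258).

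Fbl was the loosest of the group. Over 21 tumours it had r = 0.72 with Npm1 and 0.74 with Nop56 (adjusted permutation p of 0.00325 and 0.00183), but within the 16 tumours high in Myc r was 0.37 and 0.38 (adjusted permutation p of 0.187 for both), and without tumour 656 it was -0.01 and -0.09. Over the same 16 tumours, the median r of the 28 pairs of members was 0.75, and that of all pairs of probes 0.29. Pairs with Odc1 had a median r of 0.73 (-0.0024 to 0.89), and pairs without Odc1 one of 0.77 (0.13 to 0.90). These values share arrays and any shift of an array. With arrays centred on the probes measured everywhere, 9 relations passed.

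Epithelial marker level, taken over genes that did not all go the same way, moved with several members. Its mean over 8 genes had r = 0.87 with Npm1, 0.82 with Nop56 and 0.73 with Fbl over 21 tumours (adjusted permutation p of 4.4e-04, 4.4e-04 and 0.00352, over 44 relations). Within the 16 tumours high in Myc, r was 0.82 for Npm1 (rho 0.78, adjusted permutation p = 5.7e-04 over 6 relations added after the data were seen) and 0.70 for Nop56 (rho 0.68, adjusted p = 0.00442), while that of Fbl was 0.22 (adjusted p = 0.418). Ppan had r = 0.81 with the epithelial mean in the 10 tumours of its broadest component (adjusted permutation p = 0.041). These 10 hold all 5 tumours lowest in Myc and leave out tumours within their own span of Ppan levels. This relation was not tested again within the 16. The proliferation mean went with Ddx21 in its 14 lower tumours (r = 0.76, rho = 0.73, adjusted permutation p = 0.0238), and 0 of 8 relations to the mesenchymal mean within 16 tumours passed, with 1 at an unadjusted p under 0.05 (Fbl, r = 0.50, p = 0.0489).

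Tumours 638 to 643 and 653 to 665, which stand together by number, lay apart for 4 of the 9 member probes with no overlap, beside 20.6% of 8279 probes that were higher in tumours 638 to 643 with no overlap: Odc1 at 0.66 to 1.10 against -1.87 to -0.60, Npm1 at 1.02 to 1.50 against -0.63 to 0.78, Nop56 at 1.11 to 1.56 against -0.36 to 0.92 and Ddx21 at 0.64 to 0.76 against -0.42 to 0.09. With arrays centred on their medians, only Odc1 of the 9 stayed apart. The share of all probes that stayed apart on that scale was not taken, so this count cannot be read against it. The difference was not tested, since the labels give the numbers no meaning. The mean of the epithelial markers also lay apart, at 2.55 to 3.08 in tumours 638 to 643 against 1.17 to 2.15, and so did that of the macrophage markers, at 0.19 to 1.32 against -2.50 to -0.30. The means of the mesenchymal and proliferation lists overlapped. The part of these cell types in the difference was not tested.

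Other genes of the same machinery were taken from lists. Of 31 ribosome biogenesis genes tested, 6 differed between tumours, which is 19.4% beside 19.2% of all probes. They were Nolc1 and Nifk, nucleolar proteins, Nhp2, a core protein of the box H/ACA particles that make pseudouridine, Mrto4, an assembly factor of the large subunit, Rrp1b and Ftsj3. Nhp2 ranged from -0.52 in tumour 644 through 0.83 to 2.39 in tumour 641 (SE 0.37, adjusted p = 8.59e-04). It was high in tumours 638 to 643, at 1.78 to 2.39, and at -0.16 to 1.18 in tumours 653 to 665, as for Nop56. Nolc1 had its lowest level, -0.82, in tumour 644 and its highest, 1.57, in tumour 667 (adjusted p = 6e-04), Nifk -0.81 in tumour 644 and 1.74 in tumour 643 (adjusted p = 0.00168), Mrto4 -0.82 in tumour 646 and 1.17 in tumour 670 (adjusted p = 0.00432), Rrp1b -0.60 in tumour 646 and 1.79 in tumour 667 (adjusted p = 0.015) and Ftsj3 -0.41 in tumour 644 and 2.11 in tumour 640 (adjusted p = 0.0212). All 6 had their lowest level in tumour 644 or 646, as Ncl, Nop56, Ppan and Srm did. The other 25 did not pass, among them Nop58, the partner of Nop56 (adjusted p = 0.298). The median SD between tumours over the 31 genes was 0.64, below the 0.82 of all probes.

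Of 11 genes of RNA polymerase I, which transcribes ribosomal RNA, 1 passed (9.09%, beside 19.2% of all probes). It was Taf1d, a subunit of its selectivity factor, with -1.0 in tumour 644 and 1.85 in tumour 639 (adjusted p = 0.00587). Of 11 genes of the Myc network 2 passed (18.2%), Myc itself and Mga, an E-box binding partner of Max. Mga ranged from -4.39 in tumour 663, where only 1 array had a value, to 1.25 in tumour 669 (adjusted p = 0.00929). Its SE of 0.58 is for a level from 2 arrays. Max, the dimer partner of Myc, did not pass (adjusted p = 0.536).

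Of 12 further polyamine genes, 4 passed, which is 33.3% beside 19.2% of all probes, on few genes. Azin1, the antizyme inhibitor that protects ornithine decarboxylase from degradation, had the widest split: it stood at 3.59 in tumour 638, 3.04 in tumour 643, 3.26 in tumour 656, 4.22 in tumour 667 and 3.17 in tumour 669, at 1.96 and 1.46 in tumours 640 and 641, and at -1.14 to 0.08 in the other 14 (SE 0.34, adjusted p = 8.06e-09). The same 5 tumours held the 5 highest levels of Myc, 2.66 to 4.08, and the arrays of tumour 656 read 3.33 and 3.20 for Azin1. Sat1, which acetylates polyamines for their breakdown, had its lowest level, -1.03, in tumour 660 and its highest, 1.17, in tumour 639 (adjusted p = 0.0095). Mtap, which salvages the by-product of spermidine synthesis, lay below 0 in all 21 tumours, between -4.30 in tumour 644 and -0.32 in tumour 639 (adjusted p = 0.0114). Ahcy, of the methyl cycle, had its lowest level, -0.71, in tumour 644 and its highest, 1.84, in tumour 665 (adjusted p = 0.0295). The antizyme Oaz1 did not pass (adjusted p = 0.141), nor did Sms, which makes spermine (adjusted p = 0.0575).

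**Figure D4:**
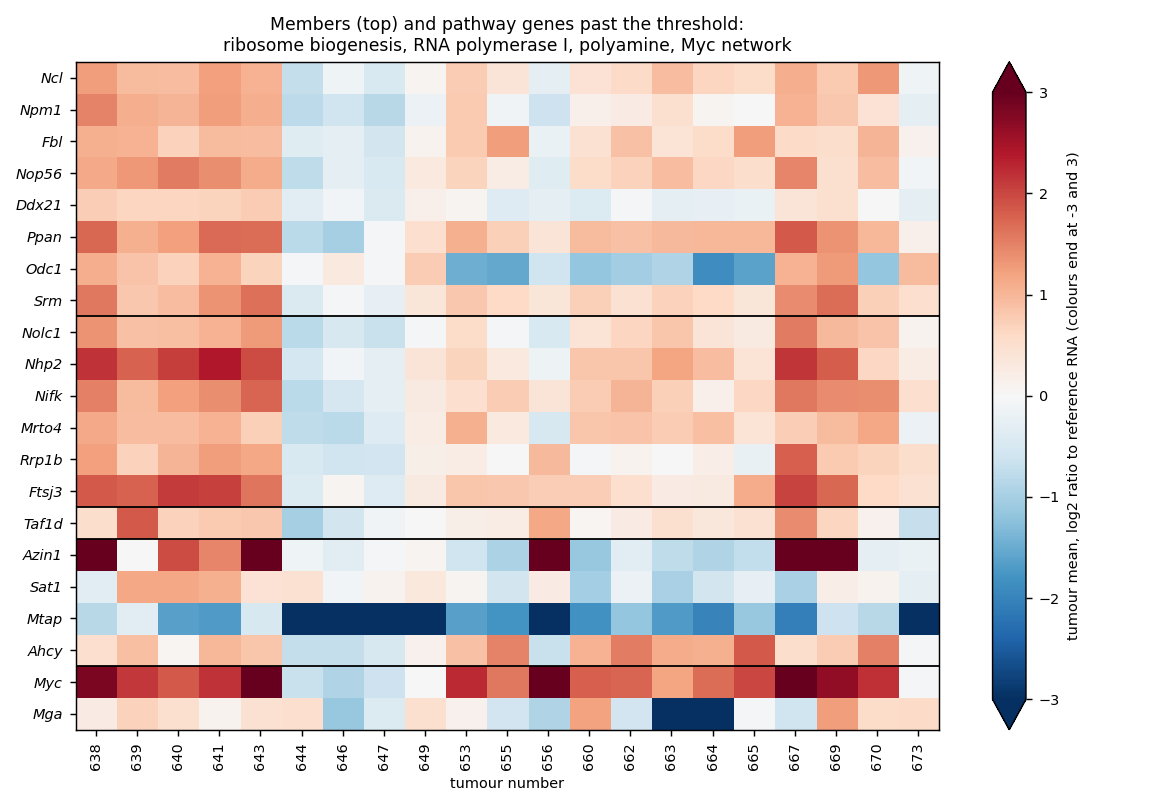
Tumour means (colour, log2 ratio to the reference RNA, colours ending at -3 and 3) of the 8 members and of the 13 listed pathway genes that differed between tumours (rows), in 21 tumours by number (columns); lines part the lists. Nucleolar rows are palest or blue in tumours 644, 646 and 647, Odc1 is blue in tumours 653 to 665 and 670, and Azin1 is dark red in 5 tumours with levels of 3.04 to 4.22.

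The genes most like the mean of the standardised members over 21 tumours, among 7917 probes, were C1qbp (r = 0.97), Mrpl12 (0.96), Uqcr11 (0.96), Nhp2 (0.96) and Eprs (0.96), given as a description with no test. C1qbp, Mrpl12 and Uqcr11 encode mitochondrial proteins, Mrpl12 of the mitochondrial ribosome and Uqcr11 of respiratory complex III, and Eprs charges transfer RNA. C1qbp had its lowest level, -0.70, in tumour 644 and its highest, 2.10, in tumour 641 (adjusted p = 1.14e-04). The genes most like Odc1, chosen after its values were seen, were Tanc1 (r = 0.94), Sec61g (0.94), Sec61b (0.94), Uqcc2 (0.93) and Papolb (0.93); Sec61b and Sec61g are subunits of the channel that passes proteins into the endoplasmic reticulum. Sec61g had its lowest level, -1.39, in tumour 655 and its highest, 0.86, in tumour 641 (adjusted p = 1.88e-04).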

How the data were processed

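The deposited values are log2 ratios of the 2 dyes, a scale read from the values; per the labels, cDNA labelled with Cy3 or Cy5 was hybridised in dye-swapped pairs against a universal mouse reference RNA, on an array of a 22800-probe oligonucleotide library. The sources used here do not name the background correction or normalization. Blank cells (24.1%) and a repeated top value of 16.61 (15512 cells) were taken as missing. The arrays of a tumour were taken as opposed, oriented by which sign each tumour's pair difference took on the leading eigenvector of their correlations, and turned so that Myc was positive. Genes came from the platform annotation, in which 16874 probes had 1 symbol, 134 several and 5792 none; 16196 matched a current gene. Levels and tests used this scale, not centred.

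Probes with both arrays of at least 15 tumours were tested with limma 3.58.1 in R 4.3.3 (moderated F test over 21 tumours, Benjamini-Hochberg over 9407 probes, threshold 0.05), checked on simulated data. Tumour levels were related by Pearson's and Spearman's correlation with 100000 two-sided permutations (all orders under 10 tumours), adjusted within each family, within components of at least 6 tumours from mclust 6.1.1. Medians ran from -1.43 to 1.24 over the turned arrays. The members and gene lists were chosen with earlier results of these data known. Named were all members, Myc, of each list the genes past the threshold with the 6 smallest adjusted p, and the 5 most like the members' mean; the rule for a gene with several probes would have taken the dimmer Ncl probe, so both are given and the brighter stands for the gene, a choice made after the values were seen. Oaz1, Sms, Nop58 and Max are outside the rule and were chosen after their values were seen. Alternatives are listed in the closing section. Where nothing says that tumours came from separate animals, relations between tumours measure only the spread of these samples.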

Additional observations from a re-analysis of the deposited data

How the results depend on the processing

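The count of 1804 probes that differed between tumours became 710 with slide run as a block, 4132 with dye orientation as a covariate and 607 with both arrays of at least 3 tumours, and 1448 to 2867 when each array was left out in turn, the highest without replicate 2 of tumour 660. The 7 member probes became 4 with arrays centred on the median (beside 18.2% of all probes) and 2 with quantile normalization (beside 1280 of 9407 probes). They became 4 with slide run as a block (beside 7.55%) and 2 with both arrays of at least 3 tumours (beside 607 of 22197 probes). With the 5 weakly loading tumours turned (chosen after seeing the data) 3 passed, beside 24.2%, and with an array left out 5 to 8. With dye orientation as a covariate all 9 passed, beside 43.9% of all probes. The 13 pathway genes of 65 became 21 with arrays centred on the probes measured everywhere, beside 2357 of 9407 probes. They became 6 with quantile normalization, 31 with dye orientation as a covariate and 5 of 74 with the 3-tumour filter, beside the shares above, and 12 to 19 with an array left out. The relations to Myc, 0 of 8, became 5 without tumour 656, and 0 to 4 with an array left out, the highest without replicate 1 of tumour 656 and 3 without replicate 2 of tumour 667. The 21 relations among members became 9 with arrays centred on the probes measured everywhere and 13 with the probes of a gene averaged, and 11 to 26 with an array left out, 11 without replicate 2 of tumour 640 and 12 without replicate 1 of tumour 673. Fewer or more probes tested enter the filters' counts; the cause of the other changes was not tested. No setting moved the median of all probes by over 0.1. No paired analysis was possible because the replicate numbers follow accession order only, and no relation could be taken within a slide run. The precision of each level is limited by 2 arrays per tumour.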
